A study of Mus musculus with 20 samples.

Results

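The 10 genes described here encode enzymes of serine synthesis and of the folate pathway that carries single-carbon units, with Pycr1 of proline synthesis beside them. They were chosen by name: Phgdh, Psat1, Psph, Shmt1, Shmt2, Mthfd1, Mthfd1l, Mthfd2, Aldh1l2 and Pycr1. All 10 were present among the 47729 gene identifiers of the count tables and all 10 passed the filter on low counts that left 14820 genes for testing.

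Fibroblasts from the colon of C57BL6/J mice, grown in flat culture in Advanced DMEM F12 with 10% serum, were profiled by sequencing of polyadenylated RNA in a study of inflammatory fibroblasts and therapy resistance in rectal cancer. There were 20 libraries in 5 groups of 4. The groups were irradiated APTKA, APTKA, irradiated APTK, APTK and untreated, where the first 4 had medium conditioned by APTKA or APTK organoids and the irradiated arms were given 5 fractions of 2 Gy. Conditioned medium was left on the cells for 24 h, and the untreated fibroblasts are also called wild-type in the labels. APTKA and APTK name organoid lines and are not expanded in the labels, which also leave unstated which cells, organoid or fibroblast, received the radiation. Irradiated medium is therefore used below as a group name only and does not say what was irradiated. Irradiated untreated fibroblasts and fibroblasts in unconditioned organoid medium are not among the groups, so in comparisons with untreated cells the medium itself and what the organoids released cannot be told apart. The labels number the replicates I to IV without giving their origin, so the spread behind each p-value is that among the sequenced libraries and may be technical.

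Serine is made from an intermediate of glycolysis by Phgdh, Psat1 and Psph in turn. The serine hydroxymethyltransferases split it into glycine and a single-carbon unit bound to folate, Shmt2 in mitochondria and Shmt1 in the cytosol. In mitochondria Mthfd2 oxidises the unit, Mthfd1l releases it as formate and Aldh1l2 can burn it to carbon dioxide, while Mthfd1 uses the formate in the cytosol for purines, thymidylate and methionine. Fibroblasts draw on glycine and proline for collagen, and Pycr1 catalyses the last step of proline synthesis in mitochondria. The transcription factor ATF4 is known to drive many of these genes when amino acids are short.

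The promoters of 5 members are shown, those of 4 genes whose transcripts fell with APTKA medium and that of Mthfd1, whose transcript did not. Each line is the 250 bases before the RefSeq start on assembly GRCm38.p6, the mm10 build, read 5′ to 3′ on the gene's strand. Capitals mark matches to TGATGNAA, the core of the C/EBP-ATF response element to which ATF4 binds, to CACGTG, the E-box bound by MYC, or to CCAAT, the box bound by NF-Y, on either strand (ATTGG is CCAAT on the other strand). The Mthfd2 window is chr6:83317605-83317854, that of Phgdh chr3:98339970-98340219 and that of Psat1 chr19:15925060-15925309. The Pycr1 window is chr11:120643749-120643998, and all 4 genes are on the minus strand. The window of Mthfd1 is chr12:76254982-76255231 on the plus strand.
Mthfd2: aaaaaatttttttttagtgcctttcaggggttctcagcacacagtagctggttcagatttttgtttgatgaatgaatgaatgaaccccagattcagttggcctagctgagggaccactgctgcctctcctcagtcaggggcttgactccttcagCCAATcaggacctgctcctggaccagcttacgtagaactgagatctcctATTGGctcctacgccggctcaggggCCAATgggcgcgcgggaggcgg
Phgdh: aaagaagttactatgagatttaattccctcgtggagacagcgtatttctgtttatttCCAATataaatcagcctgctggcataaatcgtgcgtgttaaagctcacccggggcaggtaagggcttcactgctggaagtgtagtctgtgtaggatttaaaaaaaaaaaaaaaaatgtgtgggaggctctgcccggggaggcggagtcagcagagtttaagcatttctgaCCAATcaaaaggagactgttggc
Psat1: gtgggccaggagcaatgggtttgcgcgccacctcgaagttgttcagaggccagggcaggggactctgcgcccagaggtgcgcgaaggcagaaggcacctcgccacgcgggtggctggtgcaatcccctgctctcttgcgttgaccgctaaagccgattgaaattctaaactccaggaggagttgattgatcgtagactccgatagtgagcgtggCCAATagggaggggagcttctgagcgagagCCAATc
Pycr1: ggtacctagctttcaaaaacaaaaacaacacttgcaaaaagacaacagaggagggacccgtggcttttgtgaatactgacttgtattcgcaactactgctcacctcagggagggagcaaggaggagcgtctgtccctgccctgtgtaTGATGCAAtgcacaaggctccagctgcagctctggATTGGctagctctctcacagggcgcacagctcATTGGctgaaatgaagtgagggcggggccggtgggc
Mthfd1: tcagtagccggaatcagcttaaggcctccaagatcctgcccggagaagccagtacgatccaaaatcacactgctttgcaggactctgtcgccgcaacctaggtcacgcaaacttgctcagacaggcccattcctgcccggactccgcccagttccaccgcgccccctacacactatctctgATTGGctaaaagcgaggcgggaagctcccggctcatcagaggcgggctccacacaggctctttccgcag

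Of the 10 genes, 9 had a promoter in the RefSeq table, and Aldh1l2 had none there. Only Pycr1 held TGATGNAA among the 9, as TGATGCAA beginning 103 bases before the start on the gene's strand, and 3.91% of 27025 genes hold that motif in such a window. CACGTG was found in 0 of the 9, against 6.86% of all genes. CCAAT, a motif chosen after these sequences were seen, was found in 7 of the 9, against 37.5% of all genes. Mthfd2 had 3 matches to CCAAT, Phgdh, Psat1, Psph and Pycr1 had 2 each, and Mthfd1 and Shmt1 had 1. For Psat1 these lie before the start shown, and the window before a second RefSeq start, chr19:15924623-15924872 on the minus strand, held no match to any of the 3 motifs. Matches did not overlap each other. Shmt2 and Mthfd1l, whose transcripts fell with APTKA medium, had none, and Mthfd1 and Shmt1, whose transcripts did not fall, had 1 each. Such a match is a string of letters and not a measured binding site.

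Library totals lay between 17.3 and 31.6 M counts, and replicates differed beyond counting noise in every pair (chi-square divided by its degrees of freedom, 4.5 to 83.1). The irradiated APTK libraries differed more among themselves than those of other groups, with correlations of log2 expression of 0.9849 to 0.9925 within the group, against 0.9926 to 0.9954 in the other 4 groups. Library II of that group lay furthest from its fellows, and the mitochondrial share of counts ran from 0.534 to 1.23% in that group. Fibroblast markers were abundant in all libraries, and the defining markers of epithelium and leukocytes, Epcam and Ptprc, did not exceed 0.105 and 0.195 CPM, counts scaled to a common library total, in any. Other markers on those lists were higher, up to 1.51 CPM for the epithelial keratin Krt19 and 3.35 CPM for Cd68 of macrophages. The smooth muscle myosin Myh11 averaged 213 to 354 CPM in the 5 groups.

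APTKA medium lowered 8 of the 10 transcripts relative to untreated fibroblasts, among them all 3 enzymes that make serine and all 4 that handle single-carbon units in mitochondria. The falls ran from 1.8-fold for Shmt2 to 8.34-fold for Mthfd2. Shmt1 was higher by 1.25-fold, and Mthfd1 did not pass the test. Of all 14820 genes tested, 29.9% were lower and 31.5% higher in this comparison at a false discovery rate of 5% (edgeR's quasi-likelihood test, adjusted by Benjamini and Hochberg). The median log2 fold change was -1.61 over the 10 genes and 0.003 over all genes.

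Relative to APTK medium, APTKA medium lowered the same number of members, 8, and raised 2, Shmt1 and Mthfd1, while 31.8% of all genes were lower and 31.1% higher. The median log2 fold change of the members was -1.37, against -0.03 over all genes. APTK medium alone lowered 8 members relative to untreated fibroblasts and raised Pycr1, with a median of -0.53, and Aldh1l2 did not pass. Here 22.5% of all genes were lower and 20.9% higher. These 3 comparisons share libraries pairwise, so their counts are not independent of each other.

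Cell type and growth markers moved with the media. The summed level of 9 fibroblast markers was 28700 to 32800 CPM with APTKA medium, against 48300 to 53800 with APTK medium and 56000 to 63000 CPM in untreated libraries. All 9 fell with APTKA medium relative to either. With APTK medium relative to untreated, 3 of the 9 rose and 1 fell, so the sum does not stand for each marker. Among them Col3a1 averaged 18200 CPM with APTK medium, against 26300 CPM in untreated libraries. Pdgfra averaged 263 CPM with APTK medium, against 81.4 CPM in untreated libraries. The 10 genes of cycling cells summed to 240 to 261 CPM with APTKA medium, against 180 to 189 with APTK medium and 161 to 175 CPM in untreated libraries. With APTKA medium 7 of them rose and 1 fell relative to untreated, and 6 rose and 1 fell relative to APTK medium. With APTK medium relative to untreated, 6 of these 10 rose and 2 fell. The 4 smooth muscle and pericyte markers summed to 216 to 245 CPM with APTKA medium, against 312 to 404 with APTK medium and 304 to 369 CPM in untreated libraries, and with APTKA medium 2 fell and 1 rose relative to either. The 3 enteric glia markers summed to 0.823 to 1.19 CPM with APTKA medium, against 0.806 to 1.65 with APTK medium and 2.2 to 2.96 CPM in untreated libraries, and the 1 tested fell relative to untreated. The 9 epithelial markers summed to 1.72 to 2.91 CPM with APTKA medium, against 1.57 to 2.64 with APTK medium and 1.72 to 2.28 CPM in untreated libraries, and 1 of the 3 tested rose relative to either. The 5 leukocyte markers summed to 1.91 to 2.47 CPM with APTKA medium, against 1.53 to 2.33 with APTK medium and 1.08 to 1.88 CPM in untreated libraries, and the 1 tested rose relative to untreated. Of 2 endothelial markers tested 0 passed relative to untreated and 1 rose relative to APTK medium. The part of these markers in the members' changes was not tested. In bulk RNA, fewer cells with a transcript and less of it per cell cannot be told apart.

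**Figure D1:**
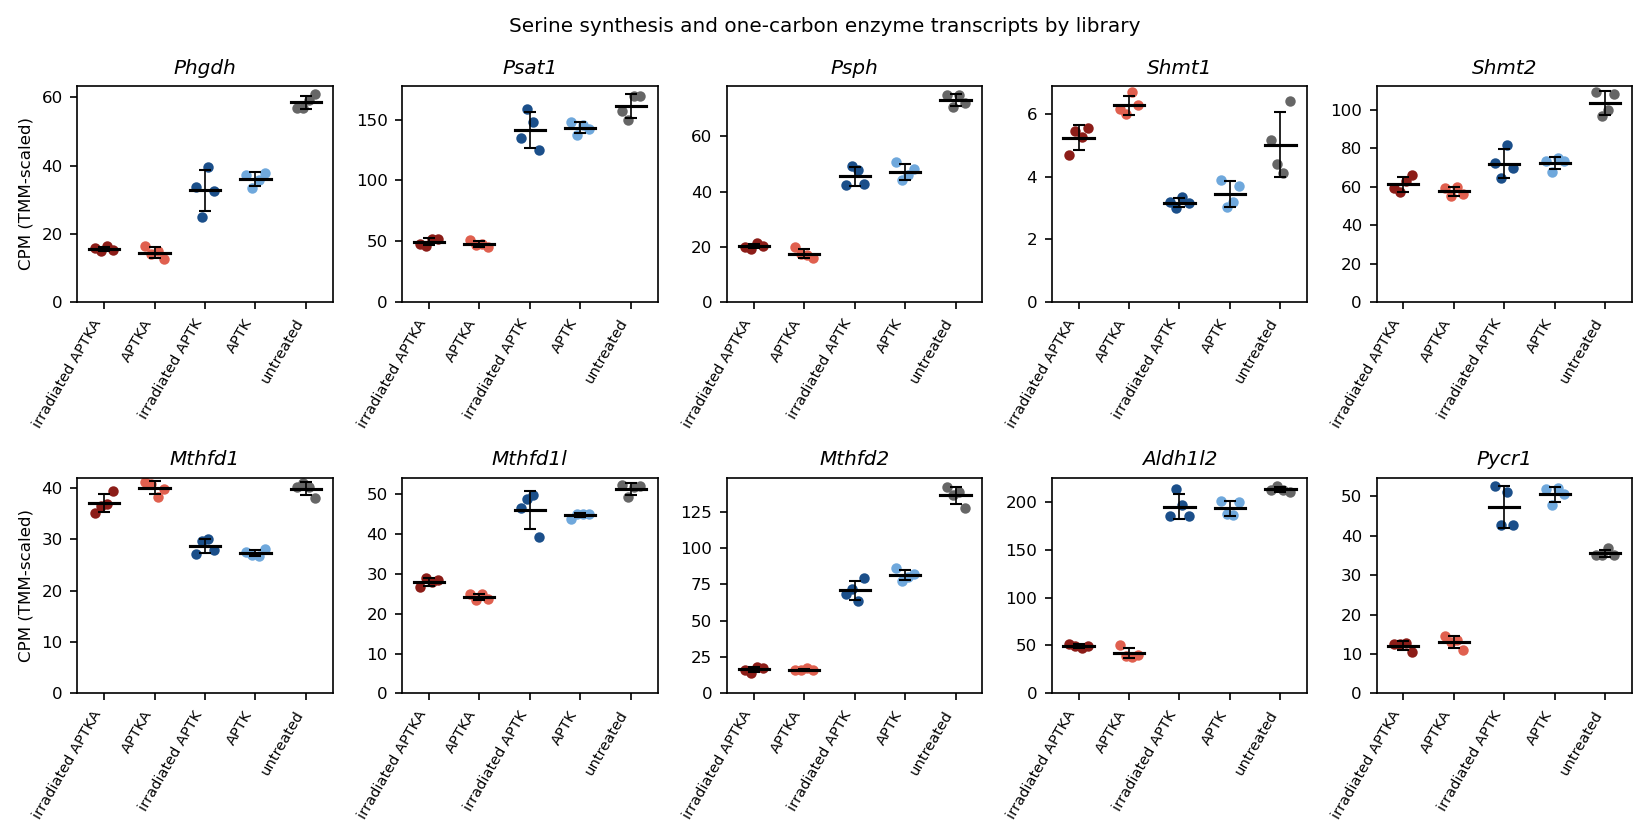
Expression of each enzyme transcript in CPM (y axis, linear from 0, a scale per panel) in every library of the 5 groups (x axis). Points are libraries, the black line is the group mean and the bars are 1 SD (n = 4). The 8 libraries given APTKA medium lie below all others for Phgdh, Psat1, Psph, Mthfd1l, Mthfd2, Aldh1l2 and Pycr1, and above those given APTK medium for Shmt1 and Mthfd1.

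Phgdh (ENSMUSG00000053398, chromosome 3, 98313170 to 98339990) encodes the dehydrogenase that commits phosphoglycerate to serine. In libraries I to IV it had 15.8, 14.9, 16.4 and 15.2 CPM with irradiated APTKA and 16.4, 14.1, 15.1 and 12.5 CPM with APTKA medium. With irradiated APTK medium it had 33.9, 24.9, 39.6 and 32.6 CPM, with APTK medium 37.3, 33.5, 35.7 and 37.8 CPM and in untreated fibroblasts 57.1, 56.9, 59.4 and 61.0 CPM. The APTKA libraries, irradiated or not, were the lowest, those of APTK medium lay between, and untreated libraries were highest, with no overlap between these 3 tiers. Both media lowered Phgdh, with a log2 fold change of -2.01 ± 0.095 (SE) for APTKA medium over untreated, -1.31 ± 0.0956 (SE) for APTKA over APTK medium and -0.70 ± 0.0888 (SE) for APTK medium over untreated (edgeR adjusted p = 7.39e-16, 5.33e-12 and 4.37e-07). Phgdh has 17 processed pseudogenes of at least 90% identity in the annotation, of which 9 were listed in the count tables with 928 counts together, against 15949 for Phgdh. Reads shared with them may have been lost or split, so its level is uncertain.

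Psat1 (ENSMUSG00000024640, chromosome 19, 15904678 to 15947337) encodes the transaminase of the next step. Irradiated APTKA libraries I to IV had 47.8, 46.3, 51.9 and 51.9 CPM of Psat1, and APTKA libraries 50.6, 46.6, 47.5 and 45.0 CPM. Irradiated APTK libraries had 135, 159, 148 and 125 CPM, APTK libraries 148, 138, 145 and 142 CPM and untreated libraries 157, 149.8, 169.6 and 169.6 CPM. The APTKA libraries lay far below the rest, while APTK libraries lay just below untreated ones, and irradiated APTK libraries overlapped both. APTKA medium lowered it 3.41-fold relative to untreated fibroblasts (log2 -1.77 ± 0.0652 (SE), edgeR adjusted p = 1.55e-18) and 3.02-fold relative to APTK medium. The fall with APTK medium relative to untreated was 1.13-fold (edgeR adjusted p = 0.0256). That call was lost with upper quartile scaling (adjusted p = 0.0619) and without untreated III (0.0824), untreated IV (0.0765), APTK II (0.078) or APTK IV (0.0533).

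Psph (ENSMUSG00000029446, chromosome 5, 129765558 to 129787449) encodes the phosphatase that yields free serine. Psph stood at 20.1, 19.2, 21.3 and 20.2 CPM in irradiated APTKA libraries I to IV and at 19.8, 17.2, 17.1 and 16.0 CPM in APTKA libraries. It stood at 42.5, 49.3, 47.7 and 42.6 CPM in irradiated APTK, 50.6, 44.1, 45.9 and 48.2 CPM in APTK and 75.0, 70.6, 74.9 and 72.1 CPM in untreated libraries. As for Phgdh, the libraries formed 3 tiers without overlap. The log2 fold change was -2.06 ± 0.0674 (SE) with APTKA medium relative to untreated, -1.43 ± 0.0676 (SE) with APTKA relative to APTK medium and -0.63 ± 0.0629 (SE) with APTK medium relative to untreated (edgeR adjusted p = 1.14e-19, 4.87e-16 and 5.50e-09). Psph shares 452 exonic bases, 10.4% of its length, with Cct6a on the opposite strand. Reads there cannot be told apart where the strand setting of the counting is not stated.

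Shmt2 (ENSMUSG00000025403, chromosome 10, 127517123 to 127522444), the mitochondrial serine hydroxymethyltransferase, moved least with APTKA medium among the mitochondrial folate enzymes. Its level in libraries I to IV was 59.4, 57.1, 62.9 and 66.0 CPM with irradiated APTKA medium and 59.4, 55.2, 59.8 and 56.0 CPM with APTKA medium. The level was 72.2, 64.3, 82.0 and 69.7 CPM with irradiated APTK medium, 73.4, 67.7, 75.3 and 73.5 CPM with APTK medium and 109.5, 97.1, 100 and 108 CPM in untreated fibroblasts. Untreated libraries were highest without overlap with any other group, while irradiated APTKA and irradiated APTK libraries overlapped. The log2 fold change was -0.85 ± 0.064 (SE) with APTKA medium relative to untreated, -0.33 ± 0.0642 (SE) relative to APTK medium and -0.52 ± 0.0634 (SE) with APTK medium relative to untreated (edgeR adjusted p = 5.64e-12, 6.26e-05 and 1.95e-07).

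Shmt1 (ENSMUSG00000020534, chromosome 11, 60788104 to 60811718), the cytosolic counterpart, was the scarcest member. The 4 irradiated APTKA libraries, I to IV, gave 4.68, 5.45, 5.28 and 5.55 CPM, and the APTKA libraries 6.16, 5.99, 6.70 and 6.27 CPM. From irradiated APTK came 3.19, 2.98, 3.33 and 3.16 CPM, from APTK 3.88, 3.02, 3.18 and 3.69 CPM and from untreated libraries 5.16, 4.40, 4.10 and 6.42 CPM. It was highest with APTKA medium and lowest with APTK media. APTKA medium raised it 1.82-fold relative to APTK medium (log2 0.87 ± 0.124 (SE), edgeR adjusted p = 7.83e-07), and APTK medium lowered it relative to untreated (log2 -0.55 ± 0.127 (SE), adjusted p = 8.98e-04). The rise with APTKA medium over untreated was 0.32 ± 0.119 (SE), the groups overlapped (edgeR adjusted p = 0.0224), and the call was lost without untreated II (0.26 on the log2 scale), untreated III (0.23) or APTKA III (0.287). Shmt1 shares 184 exonic bases with Smcr8 on the opposite strand, which had 42846 counts in all against 2413 for Shmt1, so part of its counts may belong there.

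Mthfd2 (ENSMUSG00000005667, chromosome 6, 83305691 to 83325908) encodes the mitochondrial methylene-tetrahydrofolate dehydrogenase and cyclohydrolase. Mthfd2 stood at 15.8, 14.4, 18.4 and 17.2 CPM in irradiated APTKA libraries I to IV and at 16.1, 16.0, 17.4 and 15.8 CPM in APTKA libraries. It stood at 68.2, 72.0, 63.5 and 79.3 CPM in irradiated APTK, 86.0, 77.6, 79.7 and 81.8 CPM in APTK and 142, 136, 139 and 128 CPM in untreated libraries. No library with APTKA medium exceeded 18.4 CPM, those with APTK medium lay between 63.5 and 86.0 CPM, and no untreated library was below 128 CPM. Its fall with APTKA medium was the largest of the 10, 8.34-fold relative to untreated (log2 -3.06 ± 0.0725 (SE), edgeR adjusted p = 1.06e-22) and 4.98-fold relative to APTK medium (log2 -2.32 ± 0.0718 (SE), adjusted p = 5.70e-20). APTK medium lowered it 1.68-fold relative to untreated (adjusted p = 4.66e-10).

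Aldh1l2 (ENSMUSG00000020256, chromosome 10, 83487450 to 83534140), the mitochondrial formyl-tetrahydrofolate dehydrogenase, which yields NADPH, had the highest CPM of the 10 in untreated fibroblasts. The 4 irradiated APTKA libraries, I to IV, gave 51.9, 49.1, 46.9 and 49.8 CPM, and the APTKA libraries 50.5, 39.4, 38.5 and 40.5 CPM. From irradiated APTK came 185, 213, 196 and 185 CPM, from APTK 200.4, 187, 186 and 200 CPM and from untreated libraries 212, 216, 213 and 211 CPM. It separated APTKA from all other libraries, while APTK and untreated libraries lay close. The log2 fold change was -2.33 ± 0.0677 (SE) with APTKA medium relative to untreated and -2.19 ± 0.0675 (SE) relative to APTK medium (edgeR adjusted p = 9.12e-21 and 4.89e-20). With APTK medium relative to untreated it was -0.14 ± 0.0632 (SE) and did not pass (adjusted p = 0.0774, 95% interval -0.27 to -0.01), but it passed without APTKA I (0.0244), without irradiated APTK II (0.0473) and with only the 2 groups in the fit (0.0164). Aldh1l2 shares 1056 exonic bases, 14.1% of its length, with D10Wsu102e on the opposite strand.

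Mthfd1l (ENSMUSG00000040675, chromosome 10, 3973118 to 4167081), the mitochondrial enzyme that releases formate, followed with a smaller change. Irradiated APTKA libraries I to IV had 26.6, 28.9, 27.9 and 28.5 CPM of Mthfd1l, and APTKA libraries 25.0, 23.5, 24.9 and 23.7 CPM. Irradiated APTK libraries had 46.5, 48.8, 49.8 and 39.1 CPM, APTK libraries 43.9, 45.1, 44.9 and 45.0 CPM and untreated libraries 52.2, 49.2, 51.9 and 51.9 CPM. APTKA libraries were apart from and below all others. The log2 fold change was -1.08 ± 0.062 (SE) with APTKA medium relative to untreated, -0.88 ± 0.0621 (SE) relative to APTK medium and -0.20 ± 0.0599 (SE) with APTK medium relative to untreated (edgeR adjusted p = 1.87e-14, 1.64e-12 and 0.00858).

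Mthfd1 (ENSMUSG00000021048, chromosome 12, 76255298 to 76319803), the cytosolic enzyme, followed another pattern. In libraries I to IV it had 35.2, 36.5, 36.9 and 39.5 CPM with irradiated APTKA and 41.1, 40.8, 38.3 and 39.8 CPM with APTKA medium. With irradiated APTK medium it had 27.2, 29.6, 30.1 and 27.9 CPM, with APTK medium 27.4, 27.0, 26.7 and 28.1 CPM and in untreated fibroblasts 40.1, 41.0, 40.1 and 38.1 CPM. APTKA and untreated libraries overlapped, and both APTK groups lay below them. APTKA medium raised Mthfd1 relative to APTK medium (log2 0.55 ± 0.0541 (SE)), and APTK medium lowered it relative to untreated (log2 -0.54 ± 0.0543 (SE); edgeR adjusted p = 1.07e-09 and 5.54e-09). Between APTKA medium and untreated the log2 fold change was 0.008 with a 95% interval of -0.10 to 0.12 (edgeR adjusted p = 0.907), and its sign turned with upper quartile scaling (-0.024).

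Pycr1 (ENSMUSG00000025140, chromosome 11, 120635712 to 120643769) rose with APTK medium and fell with APTKA medium relative to untreated fibroblasts. Its level in libraries I to IV was 12.6, 12.5, 12.8 and 10.6 CPM with irradiated APTKA medium and 14.6, 13.0, 13.4 and 11.1 CPM with APTKA medium. The level was 52.7, 42.6, 51.2 and 42.8 CPM with irradiated APTK medium, 51.8, 47.7, 52.0 and 50.5 CPM with APTK medium and 35.2, 35.1, 36.8 and 35.1 CPM in untreated fibroblasts. APTK libraries were highest, untreated ones lower and APTKA ones lowest, without overlap between these tiers. APTKA medium lowered it 2.72-fold relative to untreated (log2 -1.44 ± 0.0815 (SE), edgeR adjusted p = 1.30e-14), and APTK medium raised it 1.42-fold (log2 0.51 ± 0.0751 (SE), adjusted p = 3.68e-06). The 2 media differed by -1.95 ± 0.0809 (SE) on the log2 scale (adjusted p = 3.01e-17). Shmt1 also passed with opposite signs in these 2 comparisons, the other way round, though its rise with APTKA medium was lost without single libraries.

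**Figure D2:**
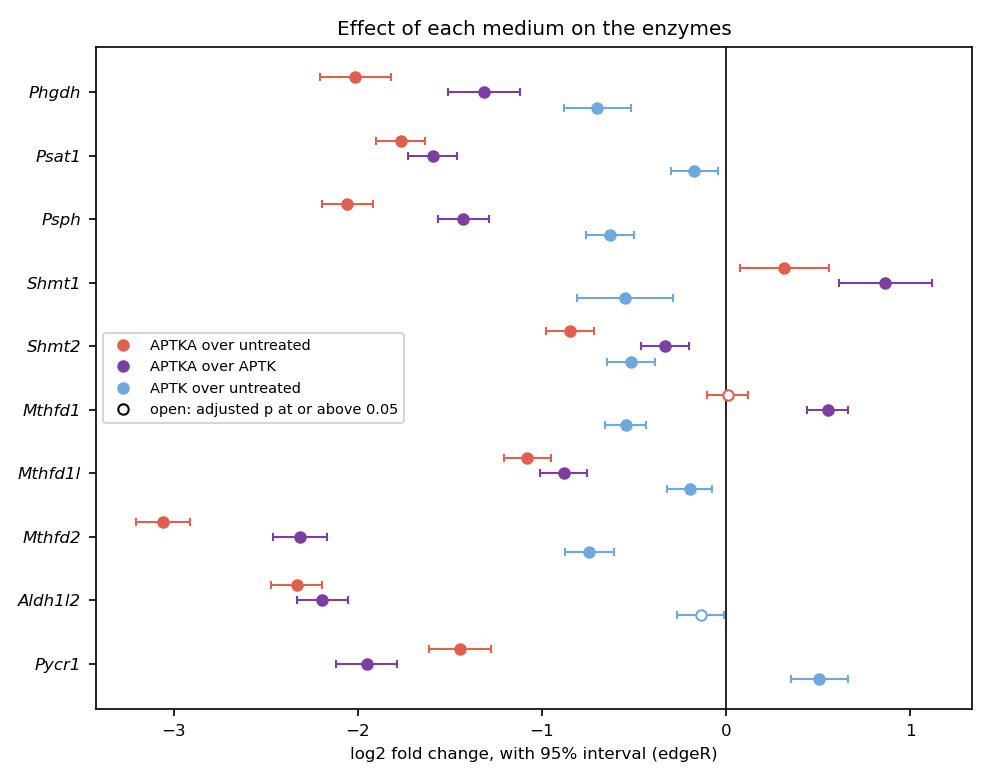
Log2 fold change of each enzyme transcript (x axis) with its 95% interval from edgeR, for APTKA over untreated, APTKA over APTK and APTK over untreated. Open points did not pass an adjusted p of 0.05: Mthfd1 with APTKA over untreated and Aldh1l2 with APTK over untreated. Mthfd2 lies furthest left at -3.06, and Pycr1 is right of 0 with APTK medium and left of it with APTKA medium.

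Compared per kilobase of exon, which allows levels of different genes to be set side by side, the order of the members differed between groups. In APTKA libraries Shmt2 was highest at 18.5 ± 0.747 CPM per kb (SD, n = 4), then Psat1 at 11.1 ± 0.558 and Mthfd1 at 9.01 ± 0.285, without overlap between neighbours. In APTK libraries Psat1 led at 33.7 ± 1.05 CPM per kb, then Aldh1l2 at 25.8 ± 1.06, with Shmt2 and Mthfd2 both at 23.3 and overlapping. In untreated libraries Mthfd2 led at 39.0 ± 1.71 CPM per kb, overlapping Psat1 at 38.0 ± 2.31. Mthfd2 was thus the highest of the 10 without medium and the seventh with APTKA medium, at 4.68 ± 0.217 CPM per kb, where it overlapped Psph. Shmt1 was the lowest in all 5 groups, at 0.815 to 1.62 CPM per kb.

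With APTKA medium the mitochondrial enzymes lost ground to their cytosolic partners, measured as the ratio of 2 genes' counts within a library, which does not depend on scaling between libraries. The Mthfd2 to Mthfd1 ratio was 0.443 (0.393 to 0.499) in irradiated APTKA and 0.408 (0.392 to 0.456) in APTKA libraries, 2.46 (2.11 to 2.84) in irradiated APTK, 2.97 (2.87 to 3.13) in APTK and 3.42 (3.32 to 3.53) in untreated libraries (geometric mean and range, n = 4). Reads of Mthfd1 thus outnumbered those of Mthfd2 in every APTKA library, and the reverse held in all other libraries. The log2 ratio with APTKA medium differed by -3.06 from untreated and by -2.86 from APTK medium, and with APTK medium by -0.20 from untreated.

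The Mthfd1l to Mthfd1 ratio was 0.756 in irradiated APTKA, 0.607 in APTKA, 1.6 in irradiated APTK, 1.64 in APTK and 1.29 in untreated libraries. APTKA lay below untreated and APTK above it, both without overlap. Shmt2 to Shmt1 was 11.7 in irradiated APTKA, 9.15 in APTKA, 22.5 in irradiated APTK, 21 in APTK and 20.9 in untreated libraries, so that it was lower with APTKA medium and did not differ detectably between APTK medium and untreated fibroblasts (log2 difference 0.01, exact permutation p = 0.914, adjusted 0.914). Of 24 two-sided exact permutation tests, 3 ratios in 8 comparisons, 19 gave p = 0.0286, the smallest that 4 against 4 libraries allow, and an adjusted p of 0.0361.

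**Figure D3:**
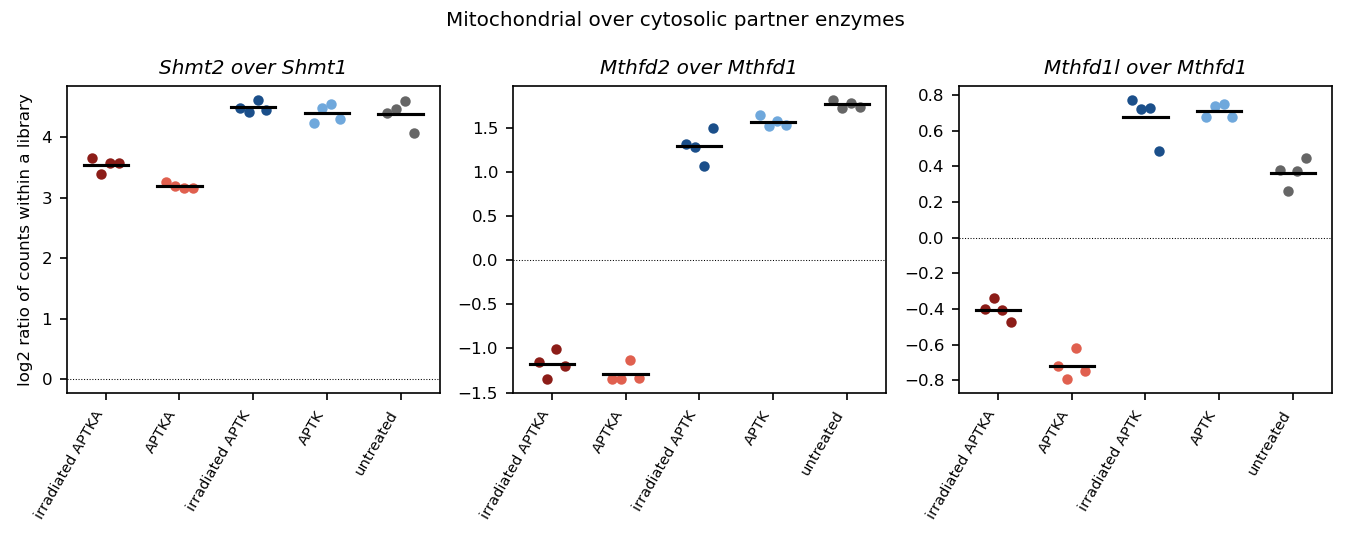
Log2 ratio of counts within a library (y axis, a scale per panel) of each mitochondrial enzyme over its cytosolic partner, by group (x axis). Points are libraries, black lines group means, and the dotted line marks equal counts. The 8 libraries given APTKA medium lie below the dotted line for Mthfd2 over Mthfd1 and Mthfd1l over Mthfd1, and the other 12 above it.

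In the irradiated APTKA group 8 members were lower and 0 higher than in untreated fibroblasts, with a median log2 fold change of -1.63. Shmt1 and Mthfd1 did not pass, and 30.0% of all genes were lower and 31.0% higher. Mthfd1 passed as lower with upper quartile scaling (log2 -0.156, edgeR adjusted p = 0.0106) and without irradiated APTKA IV (-0.135, adjusted p = 0.0458). In the irradiated APTK group 8 were lower and Pycr1 was higher, with a median of -0.50. Of all genes 22.2% were lower and 21.5% higher there. Both groups differ from untreated in medium and in radiation, which these comparisons cannot tell apart. For Psat1 (log2 -0.19 ± 0.0624 (SE), edgeR adjusted p = 0.0147) and Mthfd1l (-0.16 ± 0.0603 (SE), adjusted p = 0.0371) irradiated APTK libraries overlapped untreated ones. Both calls were lost without irradiated APTK IV (edgeR adjusted p = 0.0718 and 0.207), irradiated APTK I (0.0514 and 0.0555) or untreated III (0.0529 and 0.0735). They were also lost with only the 2 groups in the fit (0.0578 and 0.122). That of Mthfd1l was lost too with upper quartile scaling (0.0542), without the filter (0.0876) and without untreated I (0.0761) or IV (0.0686). Without irradiated APTK II, the library that stood apart, 9 members were lower and 1 higher.

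Between the irradiated media, irradiated APTKA was lower for 8 members and higher for Shmt1 and Mthfd1 relative to irradiated APTK, against 31.2% of all genes lower and 30.1% higher. The log2 fold changes ran from -2.11 ± 0.0717 (SE) for Mthfd2 to 0.72 ± 0.129 (SE) for Shmt1, with a median of -1.13. The counts were the same without irradiated APTK II and without irradiated APTK IV.

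No member passed the test for irradiation within either medium. In irradiated APTKA against APTKA medium 0 of 10 passed with edgeR and 0 with DESeq2, and 0.729% of all genes were called. An unadjusted p under 0.05 was found for 5 of the 10 and for 1861 of all 14820 genes. In irradiated APTK against APTK medium 0 of 10 passed with either tool, and 1.38% of all genes were called. There 1 of the 10 and 2213 of all genes had an unadjusted p under 0.05. The difference between the 2 irradiation effects, APTKA minus APTK, passed for 0 of 10 with either tool, with 4 of the 10 and 1337 of all genes at an unadjusted p under 0.05 and 0.182% of all genes called.

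The fibroblast markers summed to 29800 to 38800 CPM in irradiated APTKA, against 28700 to 32800 CPM in APTKA libraries, and the genes of cycling cells to 194 to 204 CPM, against 240 to 261 CPM, and their part in the values that follow was not tested. Aldh1l2 had a log2 fold change of 0.23 ± 0.0668 (SE) in irradiated APTKA over APTKA medium (edgeR adjusted p = 0.115). APTKA I stood above the other APTKA libraries, and without it the value was 0.33 and passed (adjusted p = 0.00328), as it did without irradiated APTK II (0.0388). Mthfd1l had 0.21 ± 0.063 (SE), with the 2 groups apart (adjusted p = 0.129), and it passed without irradiated APTK IV (0.0379) or with only the 2 groups in the fit (0.0486).

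Psph had 0.20 ± 0.0697 (SE) and Shmt1 -0.26 ± 0.117 (SE) in the same comparison (edgeR adjusted p = 0.194 and 0.35). With APTK medium Mthfd2 had -0.20 ± 0.0655 (SE) (adjusted p = 0.12) and Phgdh -0.13 ± 0.0911 (SE) (adjusted p = 0.536). Mthfd2 passed without irradiated APTK IV, at -0.26 (adjusted p = 0.012). The widest 95% intervals reached -0.50 for Shmt1 with APTKA medium and -0.39 for Shmt1 with APTK medium.

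Partner ratios, which remove scaling, lay apart between irradiated and plain libraries in 3 of 6 cases. With APTKA medium, Shmt2 to Shmt1 was higher by 0.35 and Mthfd1l to Mthfd1 by 0.32 on the log2 scale in irradiated than in plain libraries, and with APTK medium Mthfd2 to Mthfd1 was lower by 0.28 (each exact permutation p = 0.0286, adjusted 0.0361). The adjustment ran over all 24 tests, those between media included, so these adjusted values depend also on the differences between media. An adjustment over the 6 irradiation tests alone was not made. By the Benjamini-Hochberg rule, 3 of 6 tests at an exact permutation p of 0.0286 would not pass at a false discovery rate of 5%. These 3 ratios are therefore not read as passing for irradiation. The other 3 ratios overlapped, with exact permutation p of 0.257, 0.314 and 0.857. The irradiated APTK libraries, whose ratio of Mthfd2 to Mthfd1 was lower, are those that differed most among themselves.

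**Figure D4:**
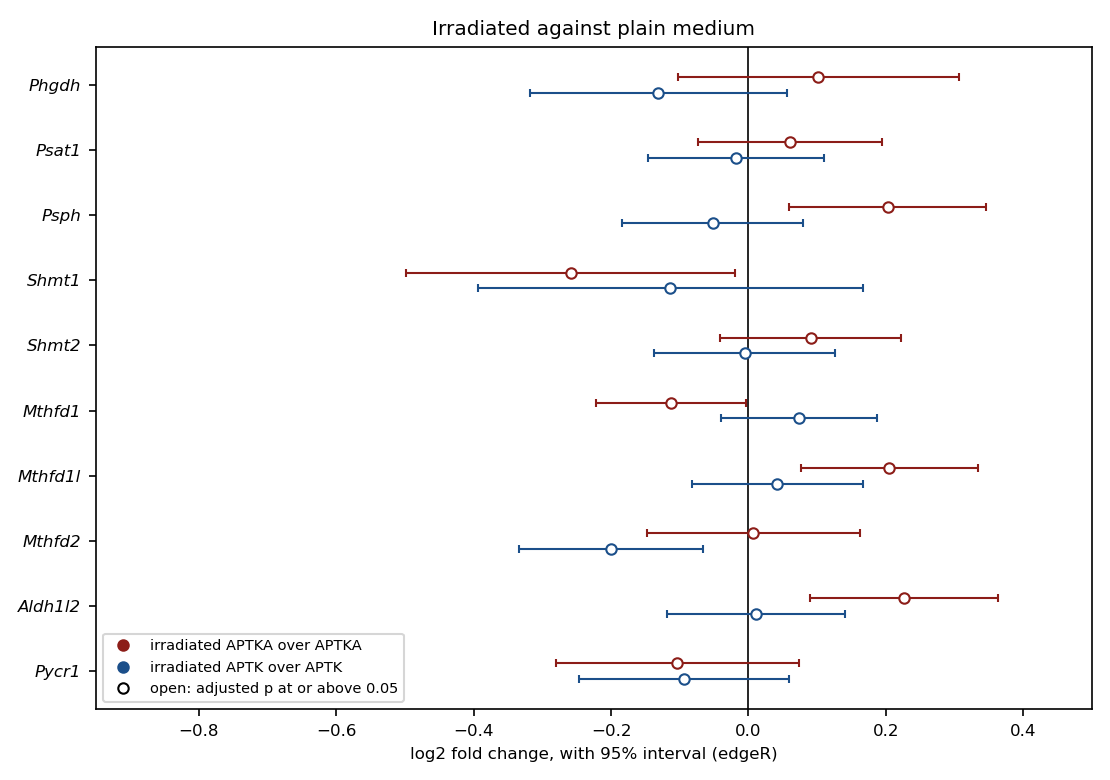
Log2 fold change of each enzyme transcript (x axis) with its 95% interval from edgeR, for irradiated APTKA over APTKA and irradiated APTK over APTK. All points are open because none passed an adjusted p of 0.05. They lie between -0.258 for Shmt1 and 0.226 for Aldh1l2, both with APTKA medium.

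The members were not alike across the 20 libraries. Pearson's correlation of a member's log2 CPM with the mean of the other 9 was 0.983 for Phgdh, 0.978 for Psph, 0.958 for Mthfd2, 0.929 for Shmt2, 0.917 for Mthfd1l, 0.906 for Psat1 and 0.882 for Aldh1l2. It was 0.737 for Pycr1, -0.324 for Mthfd1 and -0.512 for Shmt1. These values describe 20 points that fall into 5 groups, so they mostly restate the differences between groups. Genes without a symbol and those with predicted Gm or Rik names were left out of the search for genes of like pattern. Among the other tested genes outside the set, Xpot was most like the members' mean (r = 0.9914). It had 88.8 CPM in irradiated APTKA, 82.7 in APTKA, 168.2 in irradiated APTK, 164.8 in APTK and 254.8 CPM in untreated libraries. Aars (0.9904), Ptgfrn (0.9863), Efr3a (0.9862), Sars (0.9858), Erap1 (0.9849), Grb10 (0.9848), Scpep1 (0.984), Nid2 (0.9838) and Kctd15 (0.9836) came next.

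Genes around the pathway were read from 7 lists. As background to their counts, with APTKA medium 29.9% of all genes fell and 31.5% rose relative to untreated, and 31.8% fell and 31.1% rose relative to APTK medium, while with APTK medium relative to untreated 22.5% fell and 20.9% rose. Among 20 tested genes for ATF4, its regulators and its targets, 16 fell and 3 rose with APTKA medium relative to untreated, and 17 fell and 1 rose relative to APTK medium (median log2 fold change -0.93 and -0.67, against 0.003 and -0.03 over all genes). Ppp1r15a was the gene that rose relative to APTK medium. With APTK medium relative to untreated 13 fell and 4 rose, and those that rose were Ddit4, Eif2ak1, Eif2ak2 and Eif2ak4, named after their values were seen. Atf4 itself fell, with log2 fold changes of -0.63 with APTKA medium relative to untreated and -0.41 relative to APTK medium (edgeR adjusted p = 5.79e-11 and 1.82e-07).

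Trib3, a feedback inhibitor of ATF4, was at 5.69 ± 0.658 CPM with APTKA medium, against 93.3 ± 8.66 with APTK medium and 160.5 ± 31.4 CPM in untreated libraries (SD, n = 4), and Chac1, a glutathione-degrading enzyme, at 1.48 ± 0.246 CPM, against 30.6 ± 2.14 and 40.5 ± 3.98 CPM. Relative to APTK medium both fell (log2 fold change -4.03 for Trib3 and -4.37 for Chac1, edgeR adjusted p = 5.59e-09 and 1.94e-12). Asns, the asparagine synthetase, the transcription factor Atf5 and the cystine transporter Slc7a11 fell too relative to APTK medium, with log2 fold changes of -0.95, -2.0 and -2.34 (largest edgeR adjusted p = 1.24e-12). The 3 that rose with APTKA medium relative to untreated, named after their values were seen, were Eif2ak1 and Eif2ak4, kinases that act before ATF4, and Ppp1r15a, a phosphatase subunit that opposes them. The number of genes of the list that rose in this comparison was 1 to 3 when single libraries were left out and 1 with upper quartile scaling.

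In the list of glycine cleavage and serine handling 10 of 14 tested genes fell and 2 rose with APTKA medium relative to untreated, and 7 fell and 3 rose relative to APTK medium. The glycine transporter Slc6a9 was at 4.32 ± 0.373 CPM with APTKA medium, against 20.3 ± 0.933 with APTK medium and 35.5 ± 1.95 CPM in untreated libraries. Relative to APTK medium the log2 fold change was -2.24 for Slc6a9, -1.13 and -1.03 for the neutral amino acid transporters Slc1a4 and Slc1a5, and -1.03 for the serine racemase Srr (largest edgeR adjusted p = 3.58e-11). The genes that rose, named after their values were seen, were Dld and Sptlc1 in both comparisons and Serinc1 relative to APTK medium, and with upper quartile scaling 1 gene of the list rose relative to APTK medium, in place of 3.

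In proline, asparagine and related synthesis 7 of 12 fell and 4 rose with APTKA medium relative to untreated, and 7 fell and 5 rose relative to APTK medium. Aldh18a1, the first enzyme of proline synthesis from glutamate, fell as Pycr1 did, with log2 fold changes of -1.65 relative to untreated and -1.70 relative to APTK medium, and with APTK medium its value relative to untreated was 0.049 (edgeR adjusted p = 0.456). Glul, Got2 and Pycrl, named after their values were seen, rose in both comparisons. Relative to APTK medium Gpt2, the mitochondrial alanine transaminase, fell by 1.28 on the log2 scale, and Prodh, which degrades proline, rose by 0.85 (largest edgeR adjusted p = 5.06e-04).

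The other folate genes moved in both directions, with more falls than rises relative to untreated. Of 16 tested, 6 fell and 3 rose with APTKA medium relative to untreated, 8 fell and 2 rose with APTK medium relative to untreated, and 6 fell and 4 rose with APTKA relative to APTK medium (median -0.18, -0.12 and -0.01). Relative to APTK medium the log2 fold change was -0.81 for the mitochondrial folate carrier Slc25a32, -0.37 for Ggh, which trims folates, -0.34 for Mthfd2l, the close relative of Mthfd2, and 0.75 for Mtrr, which reactivates methionine synthase (largest edgeR adjusted p = 5.67e-04). Among those that rose, Slc46a1, Mtr and Slc19a1 being named after their values were seen, were Mtrr and Slc46a1 with APTKA medium relative to untreated, Aldh1l1 with APTK medium relative to untreated, and Mtr, Mtrr, Slc19a1 and Slc46a1 with APTKA relative to APTK medium. Upper quartile scaling gave 4 rises with APTK medium in place of 2. Aldh1l1, the cytosolic relative of Aldh1l2, was near the limit of detection, at 0.0915 CPM with APTKA medium, against 0.749 with APTK medium and 0.33 CPM in untreated libraries.

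Purine and thymidylate synthesis uses these single-carbon units. Of its 14 tested genes, 8 rose and 2 fell with APTKA medium relative to untreated, and 8 rose and 3 fell relative to APTK medium (median 0.18 and 0.35), while with APTK medium relative to untreated 1 rose and 6 fell. Prps1, which makes the ribose precursor, rose by 0.99 relative to APTK medium, Ppat, the committing enzyme, by 0.76, Adsl by 0.73 and Atic, which consumes formyl-folate, by 0.62 on the log2 scale (largest edgeR adjusted p = 4.50e-08). The genes that fell, named after their values were seen, were Impdh2 and Prps2 in both comparisons and Impdh1 relative to APTK medium. Tyms stands on both the folate and the purine list, and Asns on those for ATF4 and for proline and asparagine. In the methionine cycle list 4 of 10 fell and 1 rose with APTKA medium relative to untreated, and 2 fell and 2 rose relative to APTK medium, below the shares of all genes except for the falls relative to untreated. The log2 fold change relative to APTK medium was -2.51 for Cth, which makes cysteine from cystathionine, -0.39 for Ahcyl1, 0.57 for the spermine synthase Sms and 0.33 for Ahcyl2 (largest edgeR adjusted p = 0.0108).

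In the list for MYC and growth control 6 of 13 fell and 4 rose with APTKA medium relative to untreated, and 4 fell and 6 rose relative to APTK medium, against all-gene shares of 29.9%, 31.5%, 31.8% and 31.1% in that order. Myc rose by 0.75 relative to APTK medium, as did the growth inhibitor Tsc1 by 0.98 and Odc1, of polyamine synthesis, by 0.70, while Mxd4, an antagonist of MYC, fell by 0.82 on the log2 scale (largest edgeR adjusted p = 9.06e-07).

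**Figure D5:**
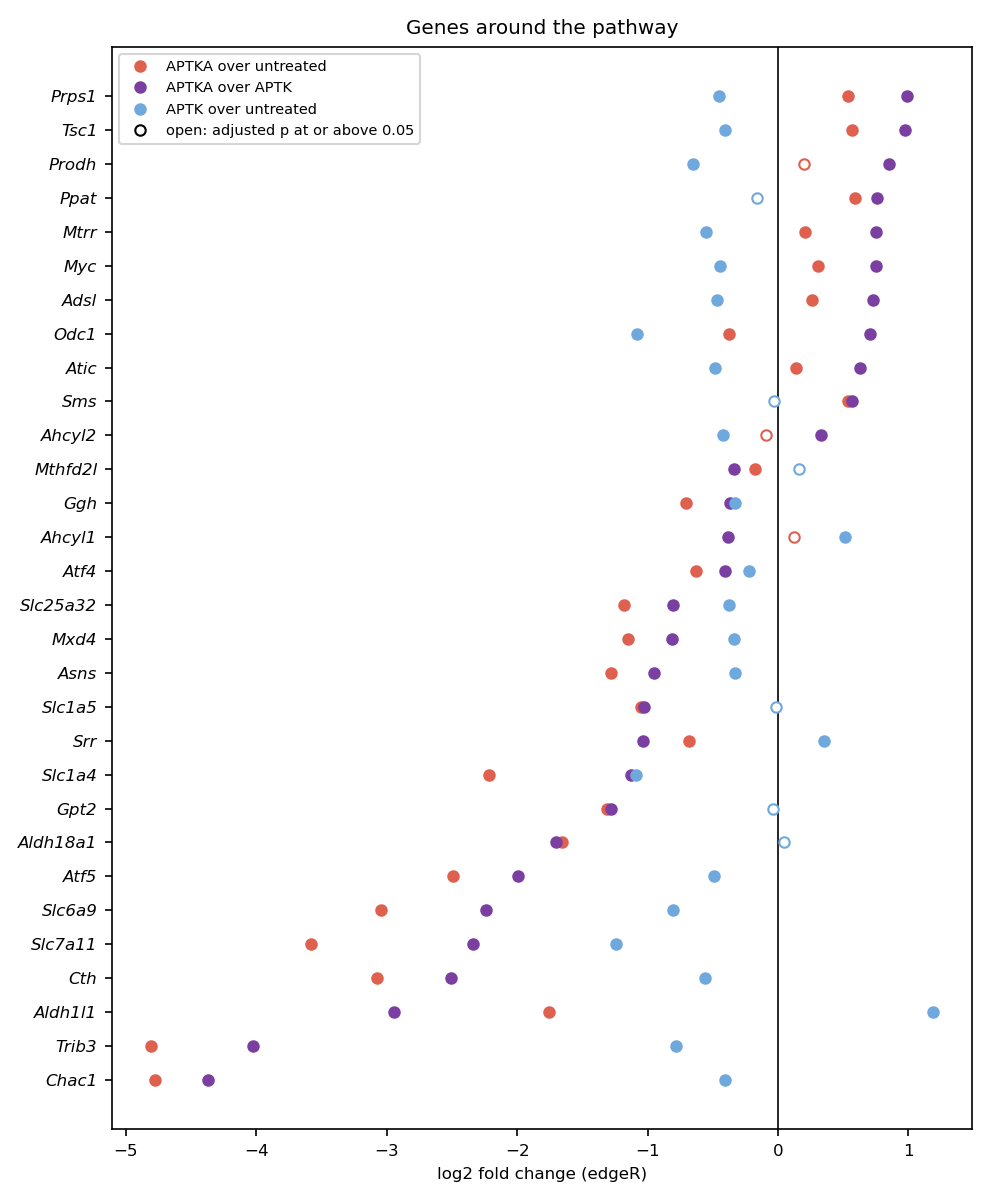
Log2 fold change from edgeR (x axis) of genes around the pathway, for APTKA over untreated, APTKA over APTK and APTK over untreated, sorted by APTKA over APTK. Open points did not pass an adjusted p of 0.05. Chac1 and Trib3 lie furthest left with APTKA medium, beyond -4, and Prps1 is highest in APTKA over APTK at 0.991.

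With irradiation, 6 of the 20 genes of the ATF4 list fell in irradiated APTK relative to APTK medium and 0 rose, against 124 of all 14820 genes that fell and 81 that rose. DESeq2 gave 9 that fell. The log2 fold change was -1.19 for Chac1 and -1.20 for Trib3 (edgeR adjusted p = 0.0025 and 0.0287), and Cebpg, Ddit3, Sesn2 and Slc3a2, named after their values were seen, fell too. The count of 6 was 2 to 8 when single libraries were left out, 7 without irradiated APTK II, and the call of Trib3 was lost without any 1 of 7 libraries of these 2 groups (adjusted p = 0.0633 without irradiated APTK II). With only these 2 groups in the fit, neither Chac1 (adjusted p = 0.125) nor Trib3 (0.294) passed. In irradiated APTKA relative to APTKA medium Slc7a11 alone rose on this list, by 0.61 (edgeR adjusted p = 0.00825, and 0.0501 without irradiated APTKA I), and 0 to 3 genes of the list did so when single libraries were left out. The 2 irradiation effects differed, APTKA minus APTK, for Slc7a11 (0.74, edgeR adjusted p = 0.0248) and Slc1a4 (0.48, adjusted p = 0.0227), and for Sesn2 and Slc38a2, named after their values were seen. The call of Slc7a11 was lost with only the groups compared in the fit (adjusted p = 0.06) and without any 1 of 8 libraries (0.0508 to 0.0864). That of Slc1a4 was lost without any 1 of 7 libraries (0.051 to 0.061). Slc38a2 no longer passed with the replicate block (0.0521), with only the groups compared (0.0552) and without any 1 of 10 libraries (0.0634 to 0.133), while Sesn2 passed under each alternative run. Across all genes 18 of these differences were positive and 9 negative. On the ATF4 list 1 to 7 genes differed when single libraries were left out, against 2 with all libraries, 7 with DESeq2, 6 without irradiated APTK II and 7 without irradiated APTK IV, and on the glycine and serine list 0 to 2, against 2.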

How the data were processed

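RNA of 20 libraries was measured as whole-number counts per gene, which the authors deposited as raw counts. Per the submitters' processing notes, bcl2fastq 2.20.0.422, STAR 2.5.2a and featureCounts 1.5.0-p1 were used with the mm10 build. Not given in the sources used here were the annotation release, the strand setting and how multiply mapped reads were treated. No mapping of libraries to groups came from values.

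Genes were filtered by edgeR's filterByExpr and scaled by TMM, and 1 quasi-likelihood model with robust dispersion was fitted to all 20 libraries (edgeR 4.0.16, limma 3.58.1, R 4.3.3; 15 residual degrees of freedom; Benjamini-Hochberg adjustment over 14820 genes). CPM used TMM-scaled totals, and lengths came from GENCODE M21 exons. The model code was tested on simulated data for APTKA over untreated, with 50 changed genes at each size. It recovered 58.0% of 1.25-fold, 86.0% of 1.5-fold and 100% of 2-fold and 4-fold changes, with 8 false calls among 14531 genes. Changes under 1.25-fold and the irradiation comparisons were not simulated. Partner ratios (offset 0.5 counts) were compared by two-sided exact permutation over 70 splits. DESeq2 1.42.0 was an alternative.

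The members and lists were chosen with earlier results of these data known. Named were the members, up to 4 genes per list with the largest change between APTKA and APTK, a few fixed genes, among them Atf4, Asns, Mthfd2l, Aldh1l1 and Aldh18a1, and the 10 genes of most similar pattern. Some genes of the lists are counted but not reported singly here.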

Additional observations from a re-analysis of the deposited data

Results flagged for a closer look

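In 65 groups of 4 values of members and ratios, 6 had 1 library far from the other 3 by Dixon's criterion, where chance gives about 1 in 20, or 3.25. Mthfd1l was 43.9 CPM in 1 APTK library, against 44.9 to 45.1 CPM in the other 3, and 49.2 CPM in 1 untreated library, against 51.9 to 52.2 CPM. Aldh1l2 was 50.5 CPM in APTKA I, against 38.5 to 40.5 CPM in the other APTKA libraries. Pycr1 was 10.6 CPM in 1 irradiated APTKA library, against 12.5 to 12.8 CPM, and 36.8 CPM in 1 untreated library, against 35.1 to 35.2 CPM. The log2 ratio of Mthfd2 to Mthfd1 was -1.13 in 1 APTKA library, against -1.35 to -1.34 in the others.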

How the results depend on the processing

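The tally of member values under the alternatives does not cover every member in every comparison. Of the values tallied, 1797 kept direction and side of the threshold, 20 lost the call, 14 gained it and 5 changed sign. Of the partner ratios 239 kept their direction and 1 changed sign, and their side of the threshold is not reported here. The count of members higher with APTKA medium relative to untreated (1) ranged from 0 to 1 when single libraries were left out. The count higher in irradiated APTKA relative to APTKA (0) was 1 without the filter on low counts and 1 with only the groups compared, and 0 to 1 when single libraries were left out. The count lower in irradiated APTK relative to APTK (0) was 1 without the filter and 0 to 1 when single libraries were left out. Mthfd1 in APTKA over untreated changed sign with RLE size factors (-0.0) and upper quartile scaling (-0.024), and ranged from -0.012 to 0.029 when single libraries were left out, being below 0 without untreated IV and APTKA I (-0.005). Shmt1 in irradiated APTKA over untreated ranged from -0.028, without untreated III, to 0.204. The log2 ratio of Shmt2 to Shmt1 in APTK over untreated was -0.008 with an offset of 5. The cause was not tested.

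Same-numbered libraries did not vary together (r -0.108 to 0.0959 over 40 pairs), so the number is not read as a pairing. The replicate block changed no count of members called. Over all genes, irradiated APTKA over APTKA gave 108 calls, 307 with DESeq2, 316 without the filter, 512 with only the groups compared and 34 to 294 without single libraries. Irradiated APTK over APTK gave 205 calls, 439 with DESeq2, 492 without the filter, 10 with only the groups compared and 32 to 1271 without single libraries. The 1271 calls came without irradiated APTK IV, against 122 without irradiated APTK II. The difference of the 2 irradiation effects gave 27 calls, 114 with DESeq2, 209 without the filter and 4 to 307 without single libraries. The 307 calls came without irradiated APTK IV, against 43 without irradiated APTK II. Upper quartile scaling moved the median of all genes to -0.103 between the irradiated media and the share of higher calls in irradiated APTKA over APTKA to 50%, against 62.0%. Alternatives for the surrounding lists and the CCAAT motif were chosen after the data were seen, and 147 of the list counts moved by over 1.5 times. Shmt1, the scarcest member, has the widest intervals of the members.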
